A study of Caenorhabditis elegans with 6 samples.

Results

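The right end of the large piRNA cluster of Caenorhabditis elegans was taken as all piRNA precursor windows of chromosome IV whose start lay at 17 Mb or beyond, on either strand. This gave 506 of the 15703 windows counted in the study, or 3.22%. Of these, 295 lay on the minus strand and 211 on the plus strand, and all 506 were 24 bases long. Counts of windows free of overlap can therefore be compared with each other without a correction for length. In the 190 windows that overlapped another on their strand, reads in shared bases were not counted. The rule used position alone, though the stretch was picked for description with earlier results of these data known.

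piRNAs of the worm, called 21U-RNAs because they are short and begin with uridine, bind the Argonaute protein PRG-1 and silence foreign sequences in the germ line. Most of them are encoded in a pair of broad stretches of chromosome IV, where each piRNA is its own small transcription unit, made by RNA polymerase II as a short capped precursor that is then trimmed. Transcription depends on a complex named USTC (upstream sequence transcription complex), which binds a short motif before each piRNA. ISW-1 is the ATPase of ISWI chromatin remodellers, which space nucleosomes.

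The study asked how depletion of ISW-1 affects piRNA precursors. All 6 libraries came from isolated germ nuclei of strain YL701, in which ISW-1 carries eGFP and an auxin-inducible degron (ISW-1::eGFP::AID III). The transgene wrdSi51 of this strain makes the plant F-box protein TIR1 from the germline promoter of mex-5. It also holds mTagBFP2, a degron tag (AID*), an NLS and the tbb-2 3′ UTR. Worms grew for 45 h at 22 °C from starved L1 larvae and then spent 3 h on plates with 1 mM auxin (knockdown, 3 libraries) or with ethanol (ETOH, the control, 3 libraries). Controls therefore carried the same degron and the same TIR1 transgene. A strain that lacks either was not analysed here, so an effect of auxin itself and an effect of losing ISW-1 cannot be told apart. Phosphatase and then RppH treatment of the RNA, per the labels' protocols, favoured molecules with a cap. The table held piRNA windows alone, so neither the depletion of ISW-1 nor the germline identity of the nuclei could be checked in it.

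The counts came as 1 pooled column per condition, with 461069 counts for ETOH and 351565 for auxin over all windows. No value per library and no spread between libraries was therefore at hand, and no p-value is given. The labels do not say whether the libraries came from separate cultures. Intervals of ratios and of shares of counts are 95% intervals for counting error only, and are too narrow if PCR copies were counted. Those of shares of windows are 95% binomial intervals that treat windows as independent, which they are not. The whole depth of the libraries was not known, and a change shared by all windows, a difference in depth, fewer nuclei that make precursors and less precursor per nucleus cannot be told apart. For that reason each ratio of auxin to ETOH is given raw and, where useful, scaled by TMM, which sets the typical window of the whole table to no change (auxin at 0.637 of ETOH, a shift of −0.65 on the log2 scale).

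Where the windows lay has a bearing on what was counted. The genome build was ce11 according to the submitters' processing notes, and all but 5 of the 506 windows could be paired with a piRNA of the same name in the Ensembl annotation of WBcel235. The 5′ end of the annotated piRNA lay 36 to 38 bases to the right of the window's 5′ end on the plus strand (209 windows) and 33 to 35 bases to its right on the minus strand (292 windows). Windows and annotated piRNAs of 21 bases thus shared no base. Whether the alignments followed the coordinates of the windows or those of the annotation was not tested. Positions given below are those of the annotated piRNA on WBcel235.

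Windows were packed into a pair of blocks and then thinned out. The first 100 kb held 178 windows, the next held 151 and the third held 147, so that 94.1% lay in these 3 stretches of 100 kb. The fourth 100 kb held 12 windows and the rest of the chromosome 18. The blocks were parted by 51.5 kb without a window (IV:17078122-17129633), which held 12 whole protein-coding genes. Among them were 3 genes of the splicing machinery, snr-1 for an Sm core protein, sfa-1 for splicing factor 1 and uaf-2 for the small subunit of U2AF, and itsn-1 for the endocytic adaptor intersectin. A second gap of 53.9 kb (IV:17267467-17321347) ended the dense part and held 15 whole genes, among them hsp-1, which encodes a constitutive HSP70 chaperone, and the glutamine synthetase gene gln-5.

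**Figure D1:**
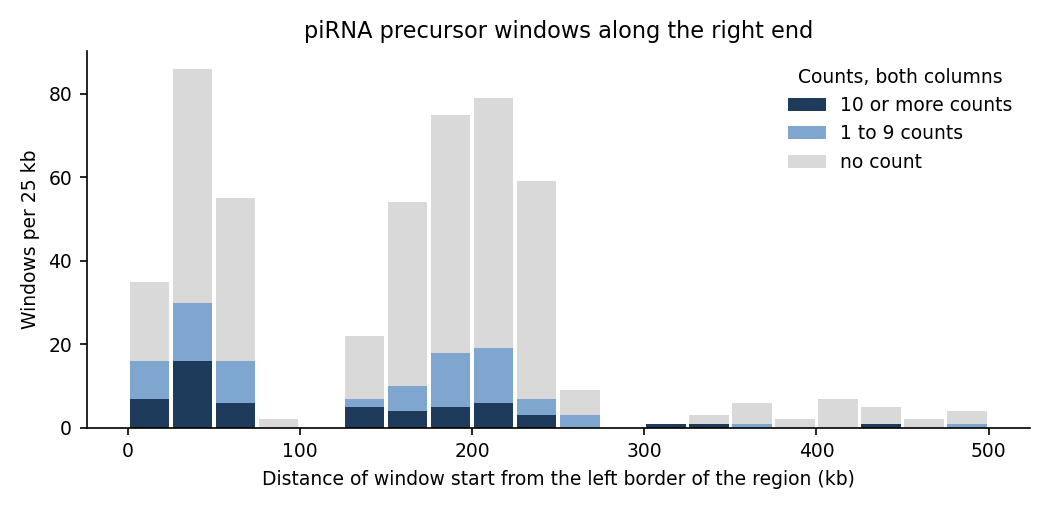
Number of windows per 25 kb (y axis) against the distance of the window's start from the left border of the region in kb (x axis), split by the counts of both pooled columns together. The 506 windows form 2 blocks, and the 131 windows with a count are a minority in nearly every bar.

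A count in either column was present in 131 of the 506 windows, 25.9% (22.1 to 29.9, Clopper-Pearson), against 25.7% of the whole table, so this end of the cluster was as often seen as the rest. Both columns had counts for 85 of the 131 windows, whereas 26 were seen solely in ETOH and 20 solely in auxin. Windows seen in a single column were weak ones. The 26 seen in ETOH alone held 58 counts together, with at most 6 in one window (21ur-804), and the 20 seen in auxin alone held 37, with at most 5 (21ur-7807). With the ETOH column rarefied to the auxin total of the table, 105.4 windows would be expected to have a count in ETOH against 105 in auxin. At 3 or more counts these numbers were 71.7 and 70. The number of precursors seen was therefore nearly the same in both columns at an equal total.

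Detection was lower farther along the region. Because a read in more than 1 window was counted for none, only windows free of overlap on their own strand are compared here, 316 of the 506. A count was present in 58 of 105 such windows in the first 100 kb (55.2%, 45.2 to 65.0), in 35 of 93 in the second (37.6%, 27.8 to 48.3) and in 29 of 92 in the third (31.5%, 22.2 to 42.0). Past these 3 stretches it was present in 3 of 10 and then in 2 of 16. Intervals of the first and the third 100 kb did not overlap, though windows are not independent samples. Among the 190 windows that overlapped another, 4 of 82 on the plus strand had a count and 0 of 108 on the minus strand. The rule of 3 for a count of 0 (3 divided by the number of windows) puts the upper limit of the latter share near 2.78%. The Clopper-Pearson bound is 3.36%. Reads in the shared bases of such windows were not counted, so these shares do not measure the precursors themselves. The outermost windows with a count were weak at both ends. The first, 21ur-3143 (IV:17015779-17015799, minus strand), had 1 count in ETOH and 0 in auxin, and the last, 21ur-5898 (IV:17482196-17482216, plus strand, in an intron of rabr-2 on the opposite strand), had 2 and 0. On the other side of the 17 Mb border, the nearest window with a count, 21ur-6245 (IV:16995073-16995093), had 72 and 79.

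Counts at this end were dominated by a single precursor. The 506 windows held 26775 counts in ETOH and 28080 in auxin, a raw ratio of 1.05 (1.03 to 1.07), whereas the whole table had 0.762 (0.759 to 0.766). The ratio of the whole table owed much to 21ur-2844, a window elsewhere on chromosome IV. Without that window the table held 351522 counts in ETOH and 306254 in auxin, closer to equality. The window of 21ur-3972 (IV:17156627-17156647, plus strand, 5450 bases from the nearest protein-coding gene, skr-13, of the Skp1-related family) had 18925 counts in ETOH and 21126 in auxin. It was slightly higher in auxin, at a raw ratio of 1.12 (1.09 to 1.14) and a TMM-scaled ratio of 1.75 (1.72 to 1.79). In ETOH 70.7% of all counts of the region came from this window, and in auxin 75.2%. Without it the totals were 7850 and 6954, a raw ratio of 0.886 (0.858 to 0.915), on the other side of equality. The stretch of 14-15 Mb was also led by a single window, 21ur-4459, with 84352 of 133520 counts in ETOH and 84612 of 120313 in auxin. In the stretches from 13, 15 and 16 Mb the strongest window held 4946 of 12303, 12566 of 56567 and 16781 of 63487 counts in ETOH.

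The next 2 windows of the region in abundance went opposite ways in raw counts. The window of 21ur-3649 (IV:17021239-17021259, minus strand, in no protein-coding gene) counted 3622 in ETOH and 3884 in auxin, for a raw ratio of 1.07 (1.02 to 1.12). The window of 21ur-3184 (IV:17027431-17027451, minus strand, in no protein-coding gene either) had 1275 and 957, a raw ratio of 0.751 (0.690 to 0.817). After scaling both lay above 1, at 1.68 (1.61 to 1.76) and 1.18 (1.08 to 1.28). Together the 3 leading windows held 89.0% of ETOH and 92.5% of auxin counts, and the other 503 windows held 2953 and 2113, a raw ratio of 0.716 (0.676 to 0.757). So the region as a whole had more raw counts in auxin, whereas the sum over all windows but its 3 strongest was smaller there. After scaling, the ratios of these 2 sums were 1.65 and 1.12, both above 1.

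**Figure D2:**
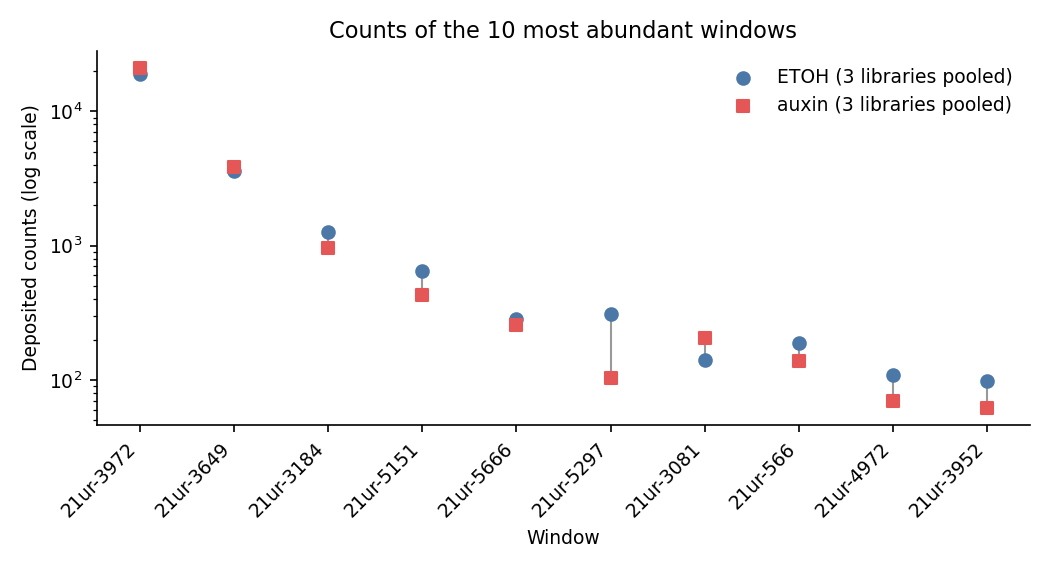
Deposited counts (y axis, log scale) of the 10 windows with the most counts (x axis, in falling order), with circles for the pooled ETOH column and squares for the pooled auxin column. Auxin lies above ETOH for 21ur-3972, 21ur-3649 and 21ur-3081 and below it for the other 7 windows, farthest for 21ur-5297, at 312 and 104 counts.

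Of the other 7 windows among the 10 most abundant, 6 had fewer counts in auxin. The window of 21ur-5151 (IV:17074978-17074998, minus strand), in an intron of Y116A8C.25 on the same strand, had 649 counts in ETOH against 431 in auxin, a raw ratio of 0.664 (0.587 to 0.751). The window of 21ur-5666 (IV:17143259-17143279, minus strand, in no protein-coding gene) had 285 and 255, a raw ratio of 0.895 with an interval that held 1 (0.753 to 1.06). The window of 21ur-5297 (IV:17026781-17026801, minus strand, in no protein-coding gene) had 312 and 104. With a raw ratio of 0.333 (0.264 to 0.417) it was the lowest of the 10, and it remained below the typical window after scaling, at 0.523 (0.415 to 0.655). The window of 21ur-3081 (IV:17157980-17158000, plus strand, in no protein-coding gene) had 140 and 206, the highest raw ratio of the 10, at 1.47 (1.18 to 1.84), or 2.31 (1.85 to 2.88) after scaling. In the windows of 21ur-566, 21ur-4972 and 21ur-3952, ETOH counts ran from 98 to 188 and auxin counts from 62 to 138, with raw ratios from 0.633 to 0.734. After scaling these 3 lay between 0.993 and 1.15, close to the typical precursor. The 10 windows together held 95.6% of ETOH and 97.0% of auxin counts.

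Ratios per window were taken over the 55 windows with 10 or more counts in both columns together. Of these, 40 had fewer raw counts in auxin and 15 had more, 72.7% fewer against 78.5% over the 1320 windows of the table that passed the same minimum, where 18.3% had more. Their raw log2 ratios had a median of −0.59, with quartiles at −1.32 and 0.10, beside −0.66 over the whole table. At least 2-fold fewer raw counts in auxin were found in 19 of 55 windows and at least 2-fold more in 1, against 38.9% and 4.02% of the table. Intervals of raw ratios were entirely under 1 in 19 of 55 windows and entirely over 1 in 5, against 40.7% and 2.42% of the table. After TMM scaling the median was 0.05, and a ratio lower by 2-fold or more was found in 5 of 55 windows and one higher by 2-fold or more in 7, against 14.8% and 8.41%. Whether these shares differ from those of the table was not tested. The counts of the 55 windows kept their order between the columns, with a Spearman coefficient of 0.82 across windows.

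Ratios at low counts were ragged, so the minimum of 10 matters. Just inside it, 5 windows had exactly 10 counts, from 21ur-7251 with 9 in ETOH and 1 in auxin to 21ur-2633 with 4 and 6. Just outside it, 4 windows had 9 counts, from 21ur-470 and 21ur-3210 with 7 and 2 each to 21ur-8940 with 1 and 8. By abundance, median raw log2 ratios were −0.81 for 21 windows of 10 to 20 counts and −1.10 for 12 windows of 20 to 50. They were −0.31 for 9 windows of 50 to 100 counts and −0.42 for 13 windows of 100 or more. Over the whole table the same classes had −0.68, −0.85, −0.72 and −0.49.

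The 55 windows did not behave alike along the region. In the first 100 kb, 26 of 29 had fewer raw counts in auxin and 3 had more. By 2-fold or more, 13 were lower in raw counts and 0 higher, and the median raw log2 ratio was −0.74. These were 89.7% with fewer counts and 44.8% lower by 2-fold or more, against 78.5% and 38.9% of the table. The stretch from 16 to 17 Mb had 82.2% and 40.9%, with a median of −0.74 as well. Past the first 100 kb, 14 of 26 had fewer and 12 more, 6 were lower by 2-fold or more and 1 higher, and the median was −0.14. The first 100 kb had 6851 counts in ETOH and 6009 in auxin (ratio 0.877, 0.847 to 0.908), but 0.598 (0.555 to 0.643) without 21ur-3649 and 21ur-3184. The 10 kb on either side of 21ur-3649 held 13 further tested windows, and 12 of them had fewer counts in auxin, with a median raw log2 ratio of −0.68.

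**Figure D3:**
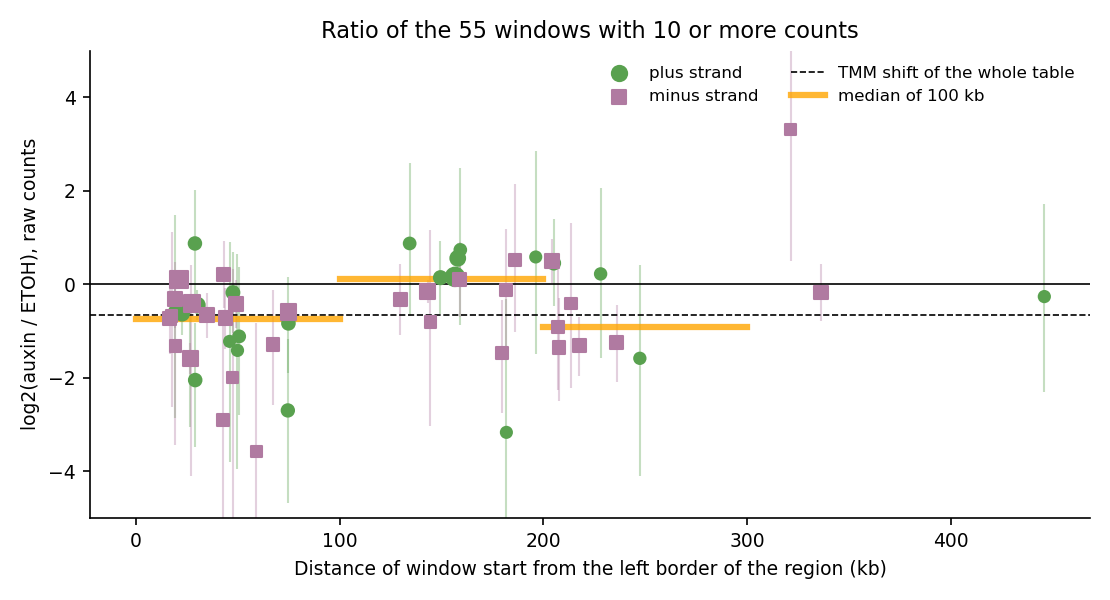
Raw log2 ratio of auxin to ETOH (y axis) against the distance of the window's start from the left border of the region in kb (x axis) for the 55 windows with 10 or more counts. Circles are plus-strand and squares minus-strand windows, their size grows with the counts, thin bars are 95% counting intervals (cut off at −5 and 5), thick bars are medians of the first 3 stretches of 100 kb and the dashed line is the TMM shift of −0.65. The medians are −0.74, 0.12 and −0.92.

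Of the 8 windows named as lower, whose intervals after scaling had the lowest upper bounds, 5 were in the first 100 kb, which held 29 of the 55 tested windows. Among these 5 was 21ur-5297, described above. The window of 21ur-439 (IV:17074616-17074636, plus strand, in an intron of Y116A8C.25 on the opposite strand) had 26 counts in ETOH against 4 in auxin, a raw ratio of 0.154 (0.0390 to 0.443). It lay 362 bases from the strong window 21ur-5151 of the same gene, which had a raw ratio of 0.664. The window of 21ur-12010 (IV:17029159-17029179, plus strand, over a coding exon of nhr-229 on the opposite strand, a nuclear hormone receptor gene) had 29 and 7, a raw ratio of 0.241 (0.0893 to 0.563). The windows of 21ur-2010 and 21ur-4497, both outside protein-coding genes, had 15 and 2 counts and 12 and 1 counts, with raw ratios of 0.133 (0.0148 to 0.573) and 0.0833 (0.00195 to 0.563). Intervals that wide leave the size of these ratios poorly known.

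The other 3 windows of that set lay past the first 100 kb. The window of 21ur-57 (IV:17217670-17217690, minus strand, in no protein-coding gene) had 77 counts in ETOH against 31 in auxin, a raw ratio of 0.403 (0.256 to 0.618). The windows of 21ur-330 and 21ur-3826 had 45 and 19 counts and 25 and 9 counts, with raw ratios of 0.422 and 0.360. After scaling, the intervals of these last 2 held 1, so that 6 of the 8 lay wholly below the typical window. The fifth window called at least 2-fold lower after scaling, beside 21ur-439, 21ur-12010, 21ur-2010 and 21ur-4497, was 21ur-7251, in an intron of C52D10.3, with 9 and 1 counts and a raw ratio of 0.111 (0.00253 to 0.802).

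The second 100 kb had a higher median than the stretches beside it. Of its 14 tested windows, 8 had more counts in auxin and 6 had fewer, and the median raw log2 ratio was 0.12. The stretch had 19558 and 21775 counts in all, and without 21ur-3972 it still had 633 and 649, a raw ratio of 1.03 (0.918 to 1.15). Counts were low there: 6 of the 14 windows had fewer than 20, and the interval of the raw ratio held 1 in 10 of the 14. For the 6 weak windows alone the median was 0.55, with 2 lower and 4 higher in auxin. Once they were left out, the median of the other 8 fell to −0.01, with 4 lower and 4 higher. The median of this stretch was thus above 0 only with its weakest windows included. On either side, the first 100 kb had a median of −0.74 and the third one of −0.92 over 9 windows, so the ratio did not climb steadily towards the chromosome end. Among all 37 stretches of 100 kb of the large cluster with 5 or more tested windows, this was the only one with a median above 0. In the 34 such stretches before 17 Mb, medians ran from −1.24 to −0.40. That ranking was drawn up after the values of the stretch had been seen, and it was not tested.

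**Figure D4:**
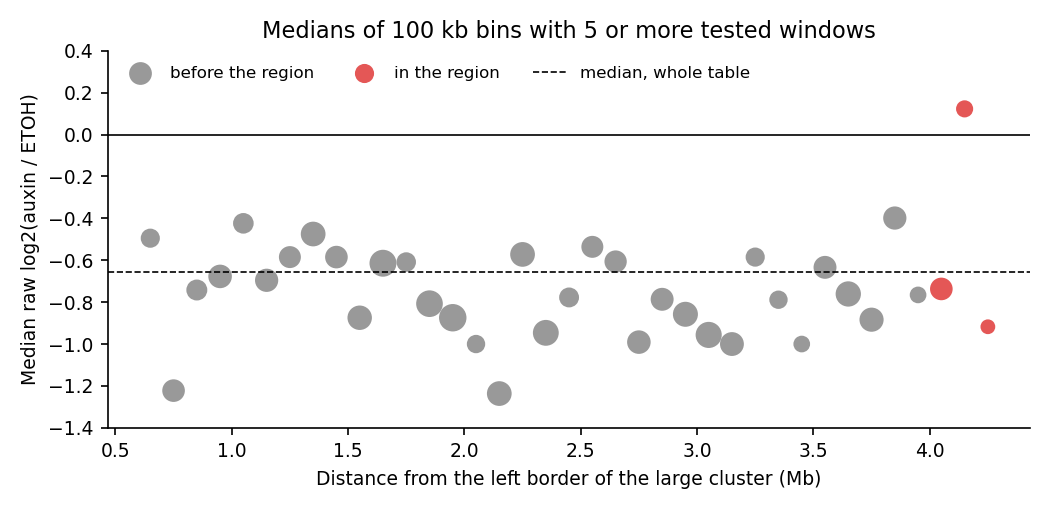
Median raw log2 ratio of auxin to ETOH (y axis) in stretches of 100 kb with 5 or more tested windows, against their distance from the left border of the large cluster in Mb (x axis). Point area grows with the number of tested windows, and the dashed line is the median of −0.66 over the whole table. Of the 3 stretches at the right end, 1 lies at 0.12 and the others at −0.74 and −0.92.

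Beside 21ur-3972, the strongest window of that stretch, 7 windows with more counts in auxin lay on both sides of it. The highest raw ratio was that of 21ur-8, at 1.83 (0.621 to 6.04) with 6 and 11 counts. The 10 kb on either side of 21ur-3972 held 4 further tested windows, and all 4 had more counts in auxin. They were 21ur-3081 with 140 and 206 counts, 21ur-4976 with 29 and 32, 21ur-5932 with 27 and 29 and 21ur-7603 with 6 and 10, and only the interval of the first lay wholly above 1. Around the strongest window of each of the other 4 stretches of 1 Mb of the cluster, most neighbours had fewer counts. The count was 2 of 3 around 21ur-1393, 6 of 8 around 21ur-4459, 6 of 8 around 21ur-6064 and 13 of 16 around 21ur-4930. These neighbours were picked after the values of the stretch had been seen, as were all windows named here beyond the most abundant, lower, higher and outermost ones.

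Of the 8 windows named as higher by their scaled ratio, 3 were among the most abundant of the second 100 kb (21ur-3972, 21ur-3081 and 21ur-5666) and 1 was 21ur-3649. The window of 21ur-5666 was higher after scaling only, at 1.40 (1.18 to 1.67), and had fewer raw counts in auxin. Another 2 of the 8 lay 693 bases apart in introns of cnnm-1, a gene of the CNNM family of magnesium transporters. The window of 21ur-7889 (IV:17204392-17204412, minus strand, the strand of the gene) had 66 counts in ETOH against 93 in auxin, a raw ratio of 1.41 (1.02 to 1.96). The window of 21ur-7710 (IV:17205085-17205105, plus strand) had 19 and 26, a raw ratio of 1.37 (0.729 to 2.62). Both were at least 2-fold higher after scaling, at 2.21 (1.60 to 3.08) and 2.15 (1.14 to 4.10). Neither was with library totals in place of TMM, at log2 ratios of 0.86 and 0.77, or without scaling, at 0.48 and 0.42. The gene held 40 windows, 10 of them with a count, and together they had 97 and 133 counts, a raw ratio of 1.37 (1.05 to 1.80). The 2 named windows supplied 85 and 119 of these, so the total mostly restates windows that were named for their high ratios.

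The last 2 windows named as higher had few counts. The window of 21ur-13680 (IV:17029029-17029049, plus strand, over a coding exon of nhr-229 on the opposite strand) had 12 and 22 counts, a raw ratio of 1.83 (0.869 to 4.06). It overlapped the window of 21ur-7807, which had 0 and 5. The window of 21ur-11407 (IV:17321348-17321368, minus strand, over a coding exon of C49C3.4 on the opposite strand) had 1 and 10, with an interval of the raw ratio from 1.42 to 434. The remaining windows higher by 2-fold or more after scaling were 21ur-8, with 6 and 11 counts, and 21ur-7603, and their scaled intervals held 1.

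From the third 100 kb on, counts were sparse. That stretch counted 306 in ETOH against 234 in auxin, for a ratio of 0.765 (0.642 to 0.910), and 6 of its 9 tested windows had fewer in auxin. From there to the end, 30 windows held 60 and 62 counts, and 3 were tested. Beside 21ur-11407 these were 21ur-13240 with 51 and 45 counts and 21ur-13973 with 6 and 5, over coding exons of C49C3.8 and F11E6.8 on the opposite strand. Neither of these 2 could be set apart from equality at this depth.

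The strands differed in the sum but had wide, overlapping ranges of ratios. Plus-strand windows summed to 19688 in ETOH and to 21786 in auxin, nearly all from 21ur-3972, and minus-strand windows had 7087 and 6294, a ratio of 0.888 (0.858 to 0.919). Among tested windows, 14 of 23 on the plus strand and 26 of 32 on the minus strand had fewer counts in auxin, with median raw log2 ratios of −0.45 and −0.67. In the first 100 kb the order was the other way, −0.98 over 12 plus-strand and −0.72 over 17 minus-strand windows. In the second it was 0.56 over 7 and −0.16 over 7.

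Windows also differed in their place relative to genes. Of the 506 windows, 337 lay outside protein-coding genes, 139 in introns, 21 over coding exons and 9 over 3′ UTRs. Of 26775 counts in ETOH, 25482 were in windows outside genes, and of 28080 in auxin, 27106 were. Among tested windows, 25 of 33 outside genes had fewer counts in auxin (median raw log2 ratio −0.68), against 15 of 22 inside genes (−0.29). Inside genes, 6 of 7 on the strand of the gene had fewer (−0.81), against 9 of 15 on the opposite strand (−0.18). Position along the region moved with this: 21 of the 33 windows outside genes lay in the first 100 kb, against 8 of the 22 inside genes. Within the first 100 kb the medians were −0.74 outside and −0.71 inside genes, and past it they were −0.03 and −0.15. The difference between windows inside and outside genes was therefore small on either side of that mark.

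Host genes with several tested windows gave mixed values. In nhr-229, 3 tested windows over coding exons had 188 and 138 (21ur-566), 29 and 7 (21ur-12010) and 12 and 22 counts (21ur-13680). In Y116A8C.25, 3 intronic windows had 649 and 431, 26 and 4, and 25 and 14 (21ur-2344). In C52D10.3, which held 36 windows, the 4 tested ones had 25 and 9 (21ur-3826), 12 and 11 (21ur-2637), 9 and 1 (21ur-7251) and 7 and 10 (21ur-2631). All windows of that gene together had 66 and 51 counts, a ratio of 0.773 (0.525 to 1.13) that could not be set apart from equality. In nhr-229 the raw intervals of 21ur-12010 (0.0893 to 0.563) and 21ur-13680 (0.869 to 4.06) lay apart. Those of 21ur-439 (0.0390 to 0.443) and 21ur-5151 (0.587 to 0.751) in Y116A8C.25 did as well. In C52D10.3 those of 21ur-3826, 21ur-2637 and 21ur-7251 overlapped. Of these windows, 21ur-12010, 21ur-13680 and 21ur-439 had been named for their low or high ratios.

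Set beside the rest of the large cluster, the right end had the highest ratio of totals. The 1 Mb stretches from 13, 14, 15 and 16 Mb had raw ratios of 0.706, 0.901, 0.784 and 0.837, and the right end had 1.05. Without the most abundant window of each, the ratios were 0.672 (0.648 to 0.697), 0.726 (0.716 to 0.736), 0.752 (0.741 to 0.763) and 0.763 (0.753 to 0.774), against 0.886 (0.858 to 0.915). The right end was thus highest with and without these windows, but 21ur-3649, with 3622 and 3884 counts, then made up much of what was left there. Without its 3 most abundant windows the right end had 0.716 (0.676 to 0.757). That lay between the values of the other stretches without 1 window each. The other stretches were not stripped of 3 windows, so the rank at that setting is not known. Median raw log2 ratios per window lay closer together, at −0.76, −0.74, −0.80 and −0.74 over 107, 334, 304 and 269 tested windows, against −0.59 over 55. Quartiles of all 5 stretches overlapped. Shares of windows with a count were 27.5%, 27.3%, 24.9% and 25.1%, against 25.9%. In shares of all counts of the table, the right end held 5.81% in ETOH (5.74 to 5.88) and 7.99% in auxin (7.90 to 8.08). Without 21ur-3972 and without 21ur-2844, a window elsewhere on chromosome IV with many more ETOH counts, these shares were 2.23% (2.18 to 2.28) and 2.27% (2.22 to 2.32), if the denominator keeps 21ur-3972. The intervals of these last shares overlapped.

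**Figure D5:**
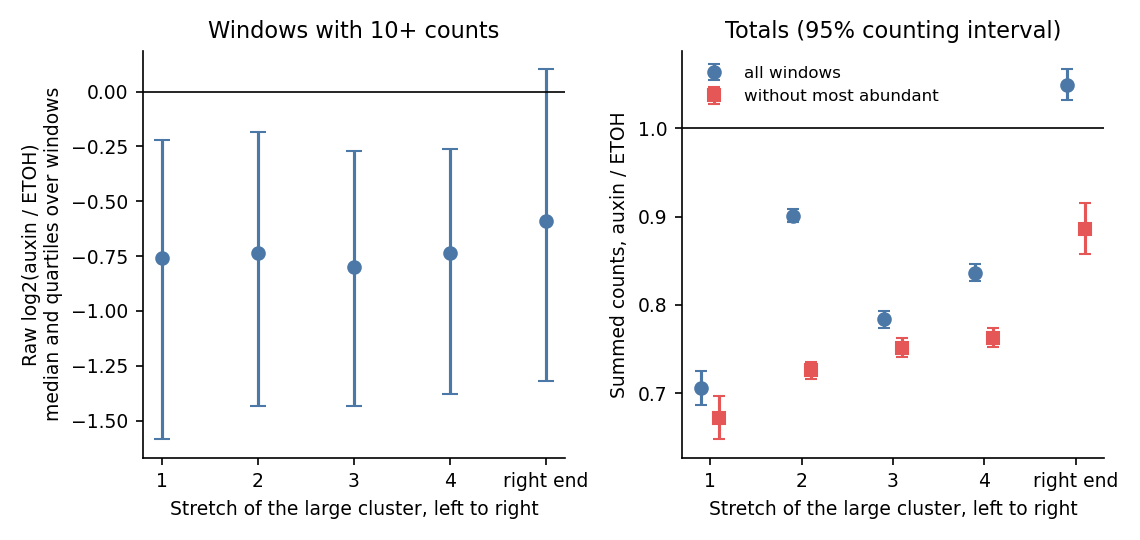
The 5 stretches of the large cluster from left to right (x axes), each of 1 Mb but for the last, which is the right end beyond 17 Mb. The left panel gives the median and quartiles of the raw log2 ratio over windows with 10 or more counts, and the right panel gives the ratio of summed counts with its 95% counting interval, for all windows (circles) and without the most abundant window of each stretch (squares). The right end is highest in the right panel, at 1.05 and 0.886, while its quartiles in the left panel overlap those of the other 4 stretches. Without its 3 most abundant windows, which is not drawn, its ratio was 0.716.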

How the data were processed

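Small RNA was sequenced from germ nuclei in 6 libraries, 3 per condition. The deposited values were raw read counts per window; per the file headers, featureCounts 2.0.3 made them with stranded counting, multi-mapping reads included and each read reduced to its 5′ base, from 1 merged alignment per condition. Precursors of like sequence could thus share reads. Per the submitters' processing notes, the build was ce11. How reads were trimmed and aligned, and whether molecular identifiers were used, is not given in the sources used here.

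Counts were scaled with edgeR 4.0.16 in R 4.3.3 (TMM on all windows with 10 or more counts, prior count 2 for log2 ratios and calls). Ratios with intervals use no prior count; scaled ones are divided by the TMM factor. Where 1 column held 0, raw log2 ratios used 0.5 added to both. Intervals are exact conditional binomial or Clopper-Pearson (Python 3.11.15, scipy 1.17.1). Rarefied detection is the exact hypergeometric expectation. The scaling was tested on simulated data. Windows were paired with annotated piRNAs of the same name and strand within 200 bases. Windows were named by a rule: the 10 with most counts, and the 8 lower and 8 higher whose scaled interval lay farthest from 1 at its nearer bound, plus the 2 outermost with a count. Other windows were named after their values were seen. The members and lists were chosen with earlier results of these data known. Planned groupings by upstream motif and first base of the piRNA were not analysed, since no genome sequence was used here. No test between conditions was run.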

Additional observations from a re-analysis of the deposited data

How the results depend on the processing

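No paired analysis was possible because the table held 1 pooled column per condition, and for the same reason single libraries could not be left out. The ratio of totals, 1.05, became 0.886 once 21ur-3972 was removed and 0.716 without the 3 most abundant windows; 1.05 was also found without overlapping windows and with the border set by annotated positions. The detection ratio of 0.996 became 1.0002 and 1.001 without the same windows and ran from 0.936 to 0.996 under the other alternatives. In place of 5 lower and 7 higher windows, library totals gave 8 and 3, no scaling gave 17 and 1, no minimum gave 14 and 18 (131 windows in place of 55) and a minimum of 50 counts gave 1 and 1 (22 windows). Those last 2 settings also estimated the TMM factor anew, at 0.683 and 0.696, and with the factor kept at 0.637 they gave 13 and 19 and 0 and 2. The scaled median of 0.05 became −0.20 with library totals, −0.51 without scaling and −0.025 with no minimum, but was again 0.05 with no minimum and the factor kept. In the first 100 kb alone 4 were lower and 1 higher, with a scaled median of −0.082. Past it 1 was lower and 6 higher, with medians of 0.47 scaled and −0.14 raw. This division, the kept factor and the removal of 3 windows were chosen after seeing the data. Of the 21 tested windows named by the rule, 5 changed sign without scaling and 4 with library totals, none of them called; 0 did with size factors by RLE or a prior count of 0.5. The windows of 21ur-3081, 21ur-7889 and 21ur-7710 were no longer 2-fold higher with library totals or without scaling. Depth limits the ratios, since 33 of the 55 windows had under 50 counts.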
